A study of Pyrus hybrid rootstock with 24 samples.

Results

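A group of 20 genes had its highest RNA level on day 1 after grafting in both heterografts and homografts of pear, out of 42812 genes with deposited values. The genes were chosen by their measured pattern among the 26895 genes that reached an FPKM of 1 in 3 or more libraries. FPKM is the number of fragments of a gene scaled by its length and by the size of the library. For each condition the mean of log2(FPKM + 1) was taken over its 3 libraries. A gene was kept when the 2 graft types differed by less than 0.5 at all 4 stages, and when the lower of the 2 day 1 means stood at least 1 above the highest of the 6 later means. This distance is called the gap here. The rule allowed at most 150 genes, and 20 passed. Genes labelled in the study's expression plots were to be left out, and 0 of the 43 found there would have passed.

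The graft unions came from plantlets micro-grafted in tissue culture and held together with silicon tubing. The heterograft (D) was a "QAUP-1" (Pyrus ussuriensis Maxim.) scion on a "Qingzhen D1" rootstock, and the homograft (S) was "Qingzhen D1" on itself, a cultivar bred from Pyrus communis L. and Pyrus bretschneideri R. All grafted plants grew on medium with the cytokinin 6-BA, the auxin IBA, and sucrose. Unions were taken on day 1 (SS, separation of rootstock and scion), day 5 (CF, callus formation), day 9 (CD, cambium differentiation), and day 30 (VC, vascular connection). A condition is written as graft type and stage, so DSS is the heterograft on day 1, and each of the 8 conditions had 3 biological replicates. No ungrafted stem was analysed here, so a day 1 level cannot be set against the level before cutting. Stage and time in culture cannot be told apart. Scion and rootstock RNA were not separated, and reads of both cultivars were aligned to the P. bretschneideri genome. Both carry sequence of other species, and the part this has in the read counts was not tested.

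Grafting cuts the stem of both partners, and the cut tissue first passes through a wound response. Cells at the cut then divide into callus, which bridges the partners, and new cambium and vascular strands form across the junction. Genes that respond to wounding are commonly high soon after the cut and lower once the junction heals. The deposited values do not pair the identifiers with gene names, so no function is given for any member, and the stem label could not be checked against marker genes.

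Reads on genes were between 10373751 and 13371958 per library in heterografts and between 11002192 and 13629999 in homografts. Each library's values correlated with those of its replicates at a mean r between 0.970 and 0.982. On day 1, DSS replicate 2 stood apart for these genes. It was the highest of the 6 day 1 libraries for 14 of the 20 members, with a median of 0.32 above the condition mean on the log2 scale, and DSS replicate 1 lay 0.25 below it (−0.25). The same median lay between −0.01 and 0.04 for the homograft libraries, although single members differed more between them. Without DSS replicate 2 the rule gave 18 genes, 14 of which were among the 20. Those lost were Pbr007397.1, Pbr016057.1, Pbr020801.1, Pbr020962.2, Pbr025526.1, and Pbr030638.1.

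Few genes with a day 1 peak were alike in the 2 graft types. Of all genes tested, 18924 (70.4%) met the limit on the graft difference at all 4 stages. Among the 105 genes with a gap of at least 1, only 20 (19%) met it. The other 85 were set apart most often at CF, where 47 had their largest graft difference, followed by SS with 21, VC with 10, and CD with 7. On day 1 itself, 7 of these 85 were higher in heterografts by the limit or more, 32 were lower, and 46 were under the limit. The gap of the 85 was between 1.01 and 3.24 with a median of 1.39, close to the members' median of 1.35. The rule fixed these values, so they are given without a test. The share depends on the limit, since 76 of the 105 genes passed the rule with a graft difference limit of 1. Replicates also spread more in members than in all genes tested (median SD 0.34 against 0.21). The part this spread has in the share was not tested.

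**Figure D1:**
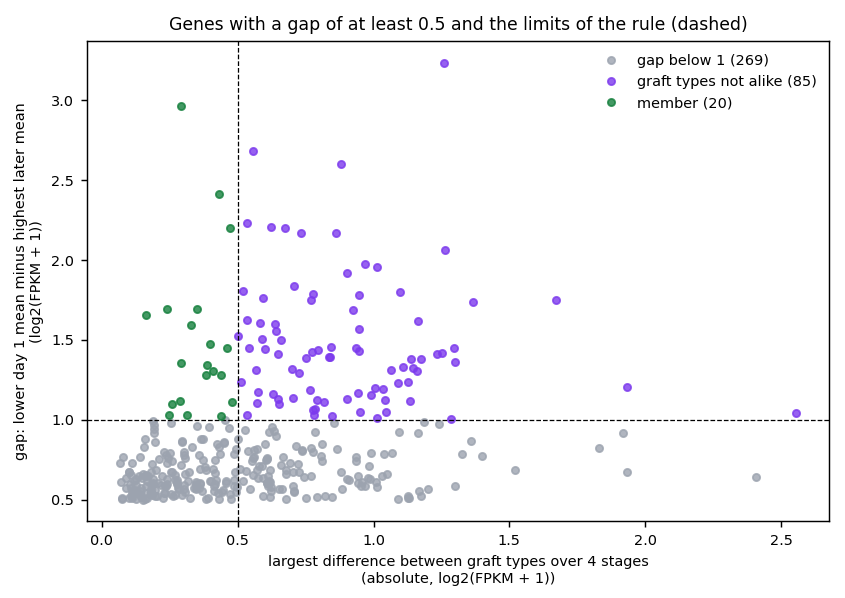
Gap (vertical axis) against the largest absolute difference between the graft types over the 4 stages (horizontal axis), both on the log2(FPKM + 1) scale, for genes with a gap of at least 0.5. The dashed lines are the limits of the rule, green points are the 20 members, violet points are the 85 genes with a gap of at least 1 whose graft types were not alike, and grey points have a gap below 1.

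All 6 day 1 libraries lay above all 18 later libraries for 20 of 20 members, a pattern found in 2.82% of the genes tested (758 genes). This follows from the rule to a large extent and is a description. For Pbr014289.1, SSS replicate 1 and DCF replicate 1 held 9 reads each, so they differed only through library size. For Pbr030638.1, SSS replicate 1 and DSS replicate 1 held 9 reads each, against 8 each in DCD replicate 2 and DVC replicate 2. The DSS and SSS libraries overlapped for 19 members. Means were higher in DSS than in SSS for 9 members and lower for 11. The rule kept the means of the graft types close together, which favours overlap, so these counts are a description too. The share of all genes tested whose DSS and SSS libraries overlapped was not computed. The exception to the overlap was Pbr016057.1, with 26.7, 32.4, and 21.6 FPKM in DSS against 36.9, 34.1, and 34.3 FPKM in SSS. Heterografts were lower there in every library.

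The median member was of medium abundance on day 1 and low later, but members ranged widely. The median rank of members among the genes tested was the 54.3 percentile on day 1 and the 24.6 percentile at the later stages. On day 1 the ranks ran from the 23.1 percentile (Pbr014289.1) to the 98.2 percentile (Pbr025526.1). Later, Pbr014289.1 lay at the 0.0335 percentile and Pbr025526.1 at the 94.4 percentile. Of the 20, 15 reached an FPKM of 1 in 3 or more of the 18 later libraries, and 5 passed the filter on low values only through day 1. These 5 had to be higher on day 1 to be counted at all. The coding length implied by the values had a median of 992 bp in members and 1101 bp in all genes tested. Replicates spread more in members, with a median SD of 0.34 on the log2(FPKM + 1) scale, than in all genes tested, with 0.21.

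**Figure D2:**
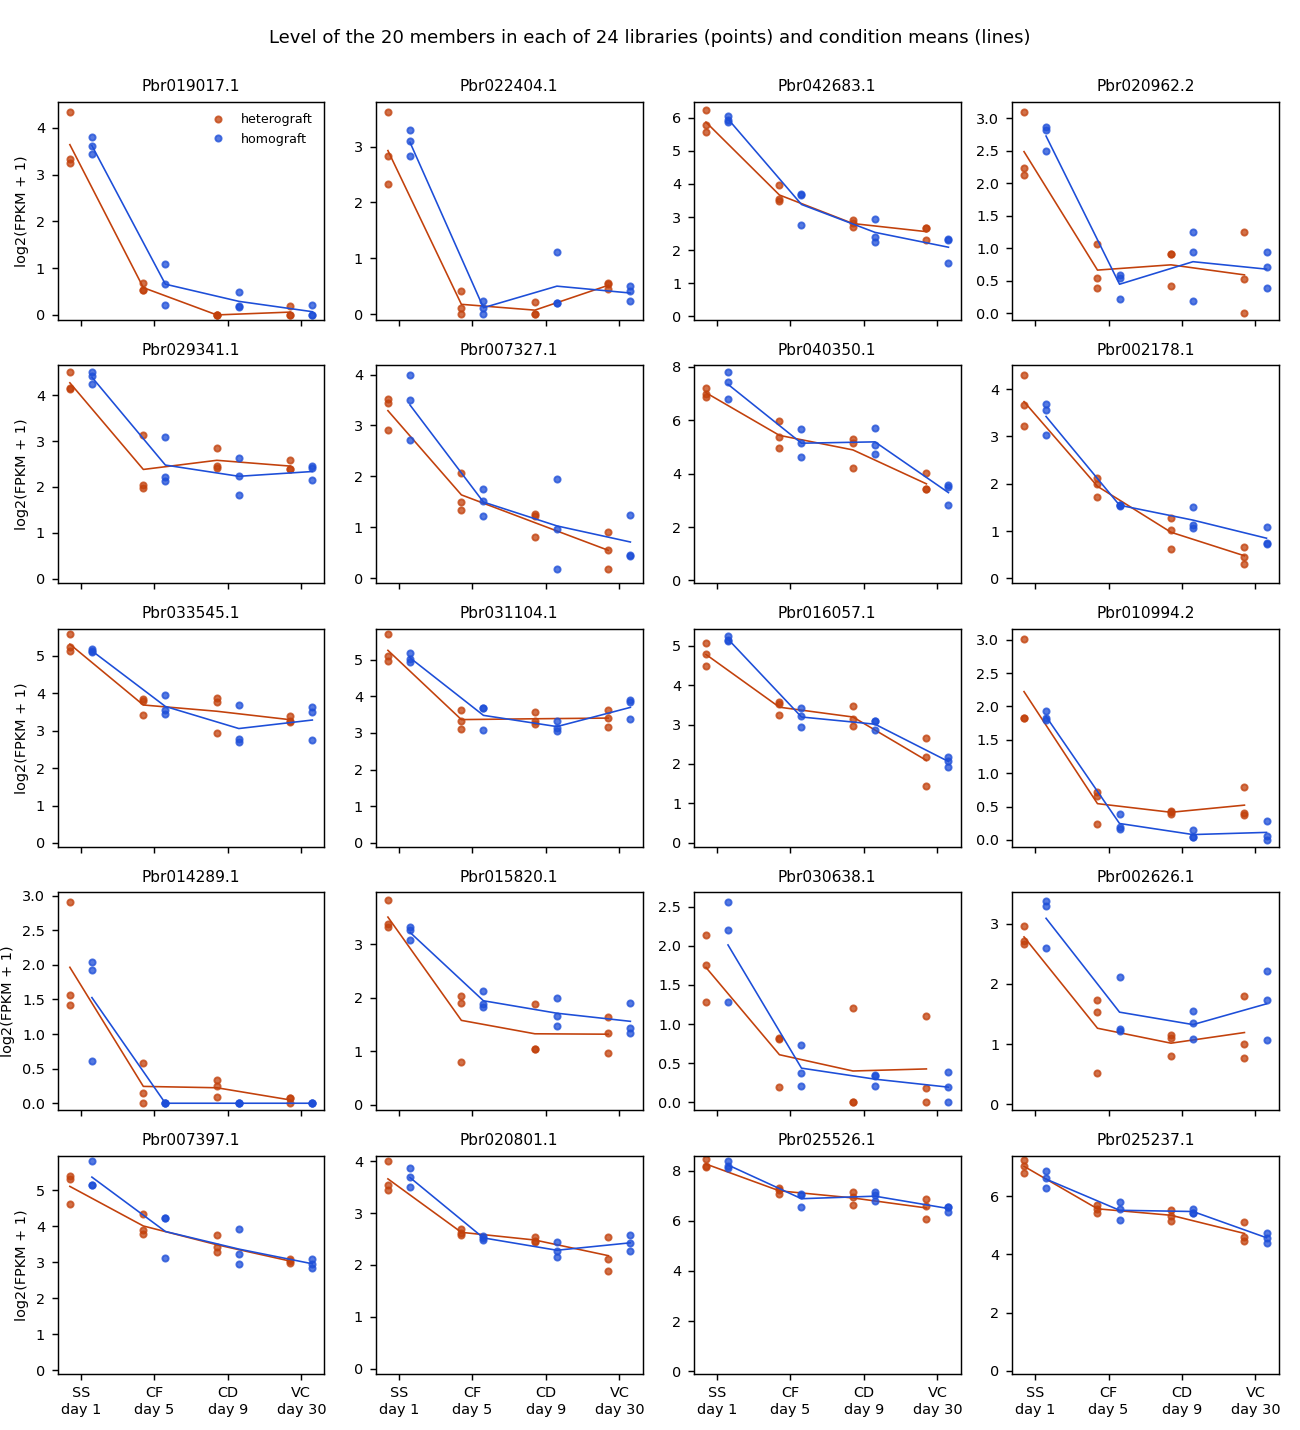
Level of each of the 20 members (log2(FPKM + 1), vertical axis) at the 4 stages (horizontal axis). Points are the 24 libraries and lines join the condition means, with heterografts in orange left of homografts in blue. In every panel the 6 points of day 1 lie above all later points, but only narrowly for Pbr014289.1 and Pbr030638.1.

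Pbr019017.1 and Pbr022404.1, which had the widest gaps, were close to 0 after day 1. This did not hold for all wide gaps, since Pbr042683.1 (2.20) kept 2.06 FPKM or more in every later library. Pbr019017.1 had the widest gap (2.96). Its heterograft values were 9.12, 19.2, and 8.48 FPKM in DSS, 0.448, 0.607, and 0.445 FPKM in DCF, 0 in all DCD libraries, and 0, 0, and 0.134 FPKM in DVC. In homografts they were 11.2, 13.0, and 9.89 FPKM in SSS, 1.14, 0.157, and 0.585 FPKM in SCF, 0.131, 0.405, and 0.150 FPKM in SCD, and 0.155, 0, and 0 FPKM in SVC. The lowest day 1 value stood above 8 FPKM and 1 later value, in SCF replicate 1, stood above 1 FPKM. Day 1 held 237 reads of the gene in heterografts and 218 in homografts. Against the 0 reads of DCD, with a floor of 3 reads over the condition, the day 1 level was at least 78.2-fold higher. Intervals and floors of reads cover counting error only.

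Pbr022404.1 followed with a gap of 2.42. It had 4.06, 11.3, and 6.11 FPKM in DSS, 0.328, 0, and 0.0815 FPKM in DCF, 0.156, 0, and 0 FPKM in DCD, and 0.456, 0.466, and 0.368 FPKM in DVC. The homograft values were 6.14, 7.56, and 8.90 FPKM in SSS, 0, 0.172, and 0.0802 FPKM in SCF, 0.144, 0.148, and 1.151 FPKM in SCD, and 0.170, 0.324, and 0.413 FPKM in SVC. Its lowest condition mean was at CD in heterografts and at CF in homografts, and not at VC in either. Its 1 later value above 1 FPKM was SCD replicate 3.

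Pbr014289.1 was at 0 reads in all 9 later homograft libraries, against 112 reads on day 1. Its SSS values were 0.523, 3.12, and 2.81 FPKM, so the first replicate lay well below the others. With the floor of 3 reads over a condition, day 1 was at least 37.8-fold higher than SCF, 42.3-fold higher than SCD, and 38.8-fold higher than SVC. In heterografts the gene kept some reads, 11 at CF, 9 at CD, and 2 at VC, against 177 on day 1. The day 1 values were 1.68, 6.47, and 1.97 FPKM in DSS, where replicate 2 held most of the level.

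A further 3 members were near 0 after day 1 without being absent. Pbr010994.2 had 2.53, 7.07, and 2.57 FPKM in DSS against at most 0.726 FPKM in the later heterograft libraries, and 2.54, 2.47, and 2.81 FPKM in SSS against at most 0.306 FPKM in the later homograft libraries. At CF, CD, and VC it held 39, 26, and 38 reads in heterografts, against 15, 5, and 7 in homografts. With a pseudocount of 0.1 in place of 1, its largest graft difference was 1.66, at VC, above the limit of the rule. Pbr020962.2 had 3.38, 7.55, and 3.69 FPKM in DSS and 6.28, 6.03, and 4.64 FPKM in SSS, and its highest later value was 1.38 FPKM, in SCD replicate 2. The member with the fewest day 1 reads was Pbr030638.1, with 1.42, 3.41, and 2.37 FPKM in DSS, 1.43, 4.87, and 3.59 FPKM in SSS, and later values up to 1.30 FPKM. Its day 1 level rested on 46 reads in heterografts and 63 in homografts, so its values are imprecise.

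At the other end, 3 members had day 1 means above 100 FPKM in DSS. Pbr025526.1 was the most abundant, with 286, 353, and 284 FPKM in DSS and 330, 277, and 289 FPKM in SSS. Pbr040350.1 had 148, 126, and 117 FPKM in DSS and 174, 223, and 109 FPKM in SSS. Pbr025237.1 had 111, 150, and 129 FPKM in DSS and 116, 96.7, and 75.9 FPKM in SSS. These genes stayed well above 0 at every later stage, and none of their libraries was under 6 FPKM.

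The share of the day 1 level that was left later differed widely among members. In heterografts the median member kept 24.6% of its day 1 mean FPKM at CF, 17.8% at CD, and 13.9% at VC. In homografts it kept 22.4% at CF, 19.3% at CD, and 9.995% at VC. At VC, heterografts ranged from 0.364% for Pbr019017.1 to 30.5% for Pbr020801.1, and homografts from 0% for Pbr014289.1 to 37.7% for Pbr031104.1. The mean of log2(FPKM + 1) fell from CF to CD and from CD to VC for 12 members in heterografts and 9 in homografts. These were counted without a test and without the share over all genes, and the rule itself set the fall from SS to CF. Because these are bulk samples, fewer cells of a type and less RNA per cell cannot be told apart.

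**Figure D3:**
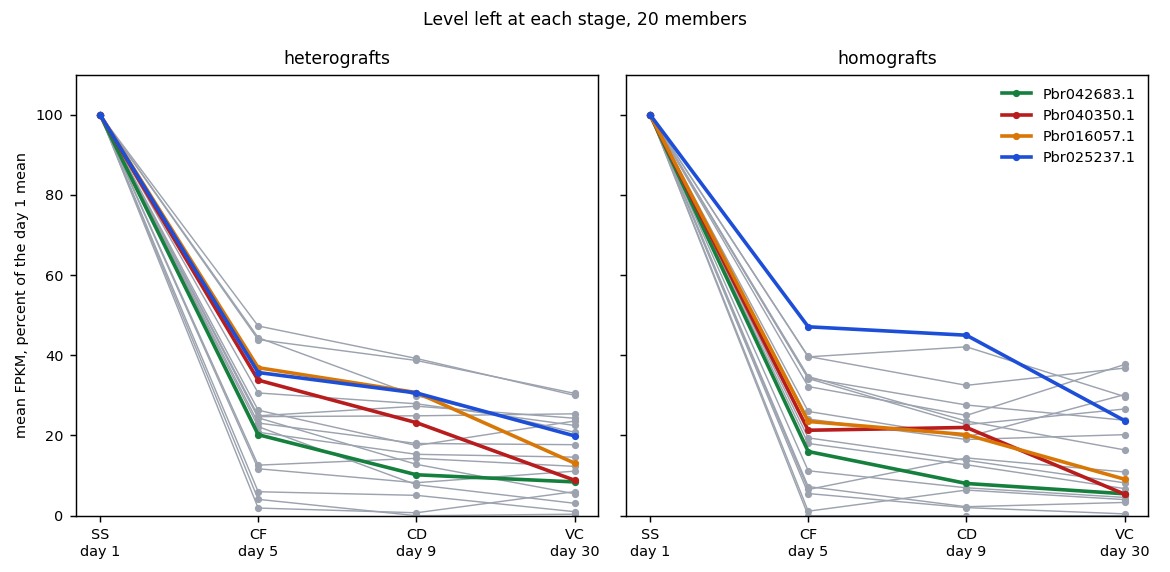
Mean FPKM of each member as a percent of its own day 1 mean (vertical axis) at the 4 stages, drawn at equal steps (horizontal axis), in heterografts (left) and homografts (right). Grey lines are the other 16 members, and the coloured lines are the 4 members that fell further between CF and VC in both graft types in every limma fit.

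The rule set day 1 against the later stages and treated CF, CD, and VC alike, so it preferred neither CF nor VC. The change from CF to VC was tested as VC minus CF within each graft type, with limma on log2(FPKM + 1). The test covered all 26895 genes, with Benjamini-Hochberg adjustment, and took no account of how the members were chosen. The rule used the CF and VC means too, and capped both alike, which bounds changes in either direction, and members near 0 at CF had little room to fall. The counts of members are therefore a description, set beside the share of all genes and without a test of the difference. The 20 include the 5 members that passed the filter on low values only through day 1, and all genes tested were not chosen by the rule. In heterografts 9 of the 20 members (45%) were lower at VC than at CF at an adjusted p below 0.05, where 6.99% of all genes tested were lower. In homografts 6 members (30%) were lower, where 7.97% of all genes were. No member (0) was called higher in either graft type, where 14.7% of all genes were higher in heterografts and 12.5% in homografts. At an unadjusted p below 0.05 and at an adjusted p below 0.05 with voom on the recovered reads this count was also 0, while 10 members in heterografts and 8 in homografts were lower at an unadjusted p below 0.05. The median change was −0.42 in heterografts and −0.37 in homografts, beside 0.10 and 0.05 for all genes tested. In all, 6 members were lower in both graft types, 3 in heterografts alone, and 11 in neither. The shares of all genes for these joint counts, and for the counts at an unadjusted p alone, were not computed. The difference between graft types was not tested because the rule bounds it. At the study's thresholds of an absolute log2 change above 1 and an unadjusted p below 0.05, 5 members were lower in heterografts (1.73% of all genes) and 3 in homografts (1.95%), and 0 were higher in either (3.18% of all genes in heterografts and 2.88% in homografts). The study applied these thresholds to fold changes from DESeq. Here they were applied to changes in log2(FPKM + 1), which understate fold changes of low genes.

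**Figure D4:**
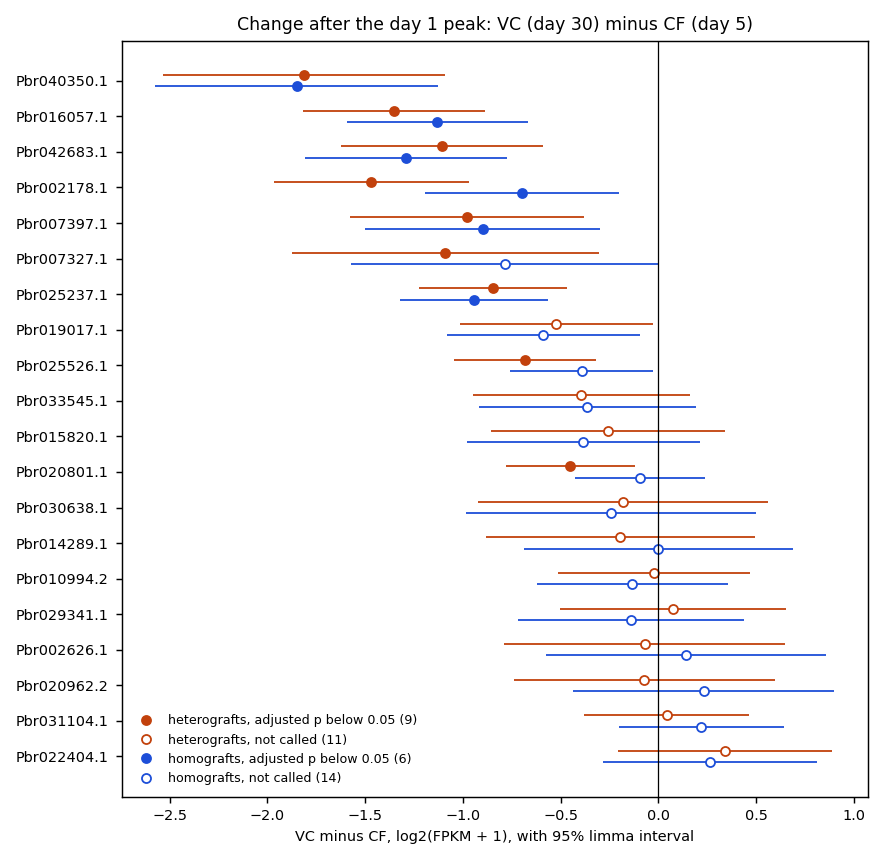
VC minus CF in log2(FPKM + 1) (horizontal axis) for each member (vertical axis), with heterografts in orange above homografts in blue. Points are limma estimates from 3 libraries against 3, and bars are 95% intervals from a spread pooled over all 8 conditions. Filled points have an adjusted p below 0.05 (9 in heterografts and 6 in homografts).

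The rule also kept the graft types within 0.5 of each other at CF and at VC, so a call in both is not independent support of its direction. The same 4 members fell further after CF in both graft types. They did so at an adjusted p below 0.05 in every limma fit, with each alternative fit and with each library left out in turn. They were Pbr040350.1, Pbr016057.1, Pbr042683.1, and Pbr025237.1. Pbr040350.1 fell most. It had 15.1, 9.76, and 9.69 FPKM in DVC against 61.5, 40.8, and 29.8 FPKM in DCF, and 6.03, 10.9, and 10.2 FPKM in SVC against 23.6, 49.8, and 34.1 FPKM in SCF. The VC and CF libraries did not overlap in either graft type. The change was −1.81 ± 0.35 in heterografts (n = 3 each, limma, adjusted p = 0.00107) and −1.85 ± 0.35 in homografts (limma, adjusted p = 0.000991). Here and below, ± gives the SE, from a spread pooled over all 8 conditions. Between these stages, at CD, it stood at 17.5, 38.4, and 34.7 FPKM in heterografts and at 33.1, 25.9, and 52.0 FPKM in homografts. The CD libraries overlapped those of CF in both graft types, with DCD replicate 1 below them.

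Pbr016057.1 had 1.70, 3.52, and 5.34 FPKM in DVC against 10.5, 10.9, and 8.41 FPKM in DCF, a change of −1.35 ± 0.22 (limma, adjusted p = 0.000318). In homografts it had 2.82, 3.56, and 3.19 FPKM in SVC against 8.33, 6.70, and 9.67 FPKM in SCF, a change of −1.13 ± 0.22 (limma, adjusted p = 0.00145). As with Pbr040350.1, the CD values overlapped those of CF, at 10.1, 7.84, and 6.82 FPKM in heterografts and 7.54, 6.22, and 7.50 FPKM in homografts.

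Pbr042683.1 had the third widest gap (2.20) and its mean at CD lay below that at CF in both graft types, which was not tested, with SCD replicate 3 above SCF replicate 3. Its heterograft values were 46.8, 75.1, and 53.8 FPKM in DSS, 14.7, 10.6, and 10.2 FPKM in DCF, 5.44, 6.54, and 6.01 FPKM in DCD, and 5.41, 5.41, and 3.98 FPKM in DVC. In homografts they were 58.2, 65.7, and 60.5 FPKM in SSS, 12.1, 11.6, and 5.84 FPKM in SCF, 4.28, 3.78, and 6.75 FPKM in SCD, and 4.06, 3.96, and 2.06 FPKM in SVC. VC and CF did not overlap in either graft type, with a change of −1.11 ± 0.25 in heterografts (limma, adjusted p = 0.00349) and −1.29 ± 0.25 in homografts (limma, adjusted p = 0.00118).

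Pbr025237.1, an abundant member, had 20.9, 33.5, and 23.0 FPKM in DVC against 42.3, 51.0, and 45.9 FPKM in DCF. In homografts it had 25.9, 19.99, and 22.8 FPKM in SVC against 54.8, 35.4, and 46.0 FPKM in SCF. Its change was the smallest of the 4, at −0.85 ± 0.18 in heterografts (limma, adjusted p = 0.00248) and −0.94 ± 0.18 in homografts (limma, adjusted p = 0.00118). Neither change met the study's threshold of an absolute log2 change above 1.

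For Pbr002178.1 and Pbr007397.1 the call in both graft types was less firm. Pbr002178.1 had 0.369, 0.236, and 0.595 FPKM in DVC against 2.98, 2.27, and 3.38 FPKM in DCF (−1.47 ± 0.24, limma, adjusted p = 0.000289), and this call held in every limma fit. Its homograft values were 1.12, 0.656, and 0.668 FPKM in SVC against 1.90, 1.91, and 1.95 FPKM in SCF (−0.70 ± 0.24, limma, adjusted p = 0.0435), and this call was lost in 8 of the 24 fits with 1 library left out. Those 8 left out any 1 of the 6 SCF and SVC libraries, DSS replicate 3, or DCF replicate 1, and the adjusted p reached 0.130 without SVC replicate 3. It was also lost with no filter on low values (limma, adjusted p = 0.0598) and with voom (limma, adjusted p = 0.149).

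Pbr007397.1 had 7.23, 7.46, and 6.86 FPKM in DVC against 19.4, 12.8, and 13.9 FPKM in DCF (−0.98 ± 0.29, limma, adjusted p = 0.0195). It had 6.12, 7.50, and 6.76 FPKM in SVC against 17.6, 17.8, and 7.70 FPKM in SCF (−0.90 ± 0.29, limma, adjusted p = 0.0322), where SCF replicate 3 lay close to the SVC values. The heterograft call was lost without DCF replicate 1 (limma, adjusted p = 0.0877), DVC replicate 1 (0.0502), or DVC replicate 3 (0.0527). The homograft call was lost without SCF replicate 1 (limma, adjusted p = 0.134), SCF replicate 2 (0.133), SVC replicate 1 (0.104), or SVC replicate 3 (0.0804), and also with voom (0.0875) or with only the 6 libraries compared (0.0951).

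The 3 members called in heterografts alone were Pbr025526.1, Pbr007327.1, and Pbr020801.1. Pbr025526.1 had 66.7, 96.1, and 114 FPKM in DVC against 148, 155, and 133 FPKM in DCF (−0.68 ± 0.17, limma, adjusted p = 0.00877), and without DVC replicate 1 the change was −0.47 (limma, adjusted p = 0.0647). In homografts it had 81.6, 91.7, and 93.3 FPKM in SVC against 130, 91.5, and 134 FPKM in SCF (−0.39 ± 0.17, limma, adjusted p = 0.122). There SCF replicate 2 lay among the SVC values, and without it the change was −0.57 (limma, adjusted p = 0.0368).

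Pbr007327.1 had 0.870, 0.472, and 0.128 FPKM in DVC against 3.20, 1.52, and 1.84 FPKM in DCF (−1.09 ± 0.38, limma, adjusted p = 0.0441), and 0.368, 0.351, and 1.36 FPKM in SVC against 1.32, 1.86, and 2.36 FPKM in SCF (−0.79 ± 0.38, limma, adjusted p = 0.151). The heterograft call was lost in 9 of 24 fits with 1 library left out, with an adjusted p of up to 0.161 without DCF replicate 1. Pbr020801.1 had 3.34, 2.70, and 4.78 FPKM in DVC against 4.96, 5.47, and 5.14 FPKM in DCF (−0.45 ± 0.16, limma, adjusted p = 0.0484), and this call was lost in 18 of 24 such fits, with an adjusted p of up to 0.213 without DVC replicate 2. Its homograft values were 4.98, 3.84, and 4.38 FPKM in SVC against 4.91, 4.61, and 4.71 FPKM in SCF, where the groups overlapped. Both heterograft calls lay close to the threshold, and both were lost with no filter on low values and with voom (limma, adjusted p between 0.0610 and 0.0793). That of Pbr020801.1 was also lost with only the 6 libraries compared (limma, adjusted p = 0.156) and with the replicate block (0.0641).

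Among the 11 members without a call, 6 were the near-0 genes described first, and 5 held a lower but measurable level after day 1. Pbr031104.1 was the flattest of these by its heterograft change. It had 30.2, 51.2, and 33.2 FPKM in DSS, 11.4, 9.12, and 7.70 FPKM in DCF, 8.55, 10.9, and 9.07 FPKM in DCD, and 9.68, 7.97, and 11.4 FPKM in DVC. In homografts it had 31.6, 29.8, and 35.4 FPKM in SSS, 11.9, 11.9, and 7.40 FPKM in SCF, 7.32, 8.98, and 7.87 FPKM in SCD, and 13.3, 9.35, and 13.8 FPKM in SVC. VC and CF overlapped in both graft types. The 95% interval of VC minus CF was −0.38 to 0.46 in heterografts and −0.20 to 0.64 in homografts, so a change of up to 0.64 in log2 is not excluded.

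Pbr029341.1 likewise overlapped, with 4.23, 5.03, and 4.24 FPKM in DVC against 7.83, 2.93, and 3.09 FPKM in DCF, and 4.29, 3.42, and 4.53 FPKM in SVC against 7.54, 3.63, and 3.39 FPKM in SCF. In both graft types CF replicate 1 was the high library. Its intervals were −0.51 to 0.65 in heterografts and −0.72 to 0.44 in homografts. Pbr033545.1 had 8.53, 9.59, and 8.36 FPKM in DVC against 12.9, 13.4, and 9.77 FPKM in DCF, which did not overlap, but the change of −0.39 did not pass the test (limma, adjusted p = 0.315). Its homograft change was −0.36 (limma, adjusted p = 0.362).

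The other members of this kind were Pbr015820.1 and Pbr002626.1, which had fewer reads. Pbr015820.1 had 8.97, 13.1, and 9.47 FPKM in DSS and 8.60, 7.51, and 8.98 FPKM in SSS, and between 0.740 and 3.37 FPKM later. Pbr002626.1, with the shortest implied coding length (393 bp), had 5.36, 6.78, and 5.57 FPKM in DSS and 9.40, 8.81, and 5.06 FPKM in SSS, and between 0.431 and 3.63 FPKM later. The highest of these later values was SVC replicate 3, against 5.06 FPKM in the lowest SSS library. The intervals of VC minus CF for Pbr002626.1 were wide, −0.79 to 0.64 in heterografts and −0.58 to 0.85 in homografts.

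The near-0 members had no call either. The widest homograft change among them was that of Pbr019017.1, at −0.59 (limma, adjusted p = 0.0847), beside −0.52 in heterografts (limma, adjusted p = 0.122), and the VC libraries lay below all CF libraries in both. In homografts the nearest of these, SVC replicate 1 and SCF replicate 2, held 1 read each, so they differed only through library size. With a pseudocount of 0.1, which weighs low levels more, it was called in both graft types (limma, adjusted p = 0.00811 in heterografts and 0.00933 in homografts). With voom on the recovered reads it was called in neither (limma, adjusted p = 0.109 in heterografts and 0.119 in homografts). It held 10 reads at CF and 1 at VC in heterografts, and 12 and 1 in homografts. Pbr022404.1 had positive estimates of 0.34 in heterografts and 0.26 in homografts, and neither passed the test (limma, adjusted p = 0.383 and 0.518). Its DVC libraries lay above all DCF libraries, while SVC and SCF overlapped. With the pseudocount of 0.1 its estimates were 1.42 in heterografts (limma, unadjusted p = 0.0391, adjusted p = 0.125) and 1.19 in homografts (limma, adjusted p = 0.204), and the heterograft one was the 1 rise of a member with an unadjusted p below 0.05 in any fit.

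The gaps ran on across the limit of the rule. The 3 members with the smallest gaps were Pbr025237.1 (1.02), Pbr025526.1 (1.03), and Pbr020801.1 (1.03). Just below the limit were Pbr028702.1 (0.996), Pbr009426.1 (0.989), and Pbr000277.1 (0.977). Pbr028702.1 was more abundant than any member on day 1, with 343, 419, and 304 FPKM in DSS and 572, 486, and 397 FPKM in SSS. Its later values lay between 82.5 and 197 FPKM. Pbr009426.1 had 83.2, 131, and 109 FPKM in DSS and 102, 71.5, and 110 FPKM in SSS. Pbr000277.1 was low, with 1.19, 3.54, and 1.496 FPKM in DSS and 6.01, 0.845, and 1.71 FPKM in SSS, where SSS replicate 1 held most of the level.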

How the data were processed

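RNA-seq of 24 graft unions was used. Per the study's methods, the authors cleaned reads with Cutadapt, mapped them with HISAT2 to the P. bretschneideri scaffold genome, obtained gene counts from HTSeq, and deposited FPKM values. Strand and multi-mapping settings are not given in the sources used here. Libraries were grouped by their titles. FPKM values gave back whole reads, within 0.02, for 100% of the 32966 genes detected in 4 or more libraries, and identical pairs of libraries numbered 0. Among genes with a mean above 100 reads, 100% of the rounded implied lengths were multiples of 3. Implied lengths were therefore taken as coding lengths.

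For the 26895 genes that reached an FPKM of 1 in 3 or more libraries, limma (version 3.58.1, R version 4.3.3) was run on log2(FPKM + 1), with a trend and a mean for each of 8 conditions. This scale understates fold changes of low genes. The script was tested on simulated data. P-values set each difference against the spread between replicates, which the main fit pooled over all 8 conditions, so both graft types share 1 SE per gene. The remaining values were computed in Python (3.11.15) using scipy (1.17.1), pandas (2.3.3), and numpy (2.4.6).

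The members and lists were chosen with earlier results of these data known. Genes were to be named by the widest gaps, the highest day 1 means, the widest changes called in both graft types, and nearness to the limit. The remaining members are named so that each is accounted for. Lists of pathway and cell type genes could not be applied, because no annotation was used here. Alternatives were upper-quartile scaling, a pseudocount of 0.1, no filter or a minimum FPKM of 5, no trend, voom on recovered reads, only the 6 libraries compared, a replicate block, a graft difference limit of 1, the study's thresholds, and each library left out.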

Additional observations from a re-analysis of the deposited data

How the results depend on the processing

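Which genes met the rule depended on its settings. There were 12 genes with a pseudocount of 0.1, of which 9 were among the 20, and 76 with a graft difference limit of 1, which kept all 20. With the pseudocount of 0.1 all 20 kept a gap of at least 1, and the 11 lost ones exceeded the limit on the graft difference at a later stage. With 1 library left out there were 17 to 24 genes, and 2 members, Pbr019017.1 and Pbr031104.1, were kept in all 24 cases. Members lower at VC than at CF numbered 6 to 10 in heterografts and 4 to 7 in homografts with 1 library left out, and members higher 0 to 0. The 6 came without DCF replicate 1 or DVC replicate 1, and the 4 without SCF replicate 1, SVC replicate 1, or SVC replicate 3. At the study's thresholds, applied to log2(FPKM + 1), 5 members were lower in heterografts and 3 in homografts. Voom gave 7 and 4. Between CF and VC within a graft type, same-numbered replicates were not taken as paired, since the correlations of their deviations were between −0.101 and 0.137, and the fit with the replicate block gave 8 in heterografts, losing Pbr020801.1, and 6 in homografts.

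Of 480 values of called changes under the alternatives, 427 kept the call, 53 lost it, and 0 reversed. Changes that turned sign were uncalled. Pbr031104.1 in heterografts was −0.023 with upper-quartile scaling and −0.080 to 0.18 with 1 library left out. The ranges with 1 library left out in heterografts were −0.40 to 0.22 for Pbr020962.2, −0.13 to 0.45 for Pbr029341.1, −0.17 to 0.068 for Pbr010994.2, −0.52 to 0.032 for Pbr030638.1, and −0.44 to 0.16 for Pbr002626.1. In homografts they were −0.31 to 0.17 for Pbr029341.1 and −0.13 to 0.44 for Pbr002626.1. Depth limits the near-0 members, some of which rest on fewer than 100 reads on day 1.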
